A study of Homo sapiens with 27 samples.

Results

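Oncostatin M (OSM) was tested as an addition to epidermal growth factor (EGF) plus transforming growth factor beta (TGFB) in MCF10A cells, a widely used established line of human breast epithelium that does not form tumours and is labelled as normal. The comparison rests on 6 of the 27 libraries in the series, chosen by the ligand names in their labels: 3 libraries of cells given EGF+TGFB and 3 of cells given EGF+OSM+TGFB. Each ligand was used at 10 ng/ml and RNA was collected after 24 h. Cells of every group had been grown with serum, insulin, hydrocortisone, cholera toxin and 20 ng/ml EGF, plated on collagen, and then held for 18 h without growth factors, so all of them had met EGF before the treatment. A further 18 libraries, 3 each for PBS, OSM, EGF, EGF+OSM, TGFB and OSM+TGFB, gave the effect of the same OSM addition without other ligands, with EGF and with TGFB. The last 3 libraries, taken before treatment, entered only the estimate of spread and the plot of levels by group. A single cell line was used, and the labels do not say whether replicates were separate cultures, so p-values measure the spread between these libraries, which may be technical.

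OSM is a cytokine of the interleukin-6 family. It binds the OSM receptor (OSMR) or the LIF receptor (LIFR) together with gp130, the product of IL6ST, and the attached JAK kinases activate STAT3 and, to a lesser degree, other STAT factors. SOCS3, a fast STAT3 target, binds gp130 and its kinases and limits the signal. EGF acts through its receptor kinase and the RAS-ERK cascade and drives division of mammary epithelium. TGFB acts through SMAD factors, arrests epithelial growth and can start an epithelial-mesenchymal transition (EMT), the loss of cell junctions and gain of migratory genes.

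The 6 libraries held 30.1 to 52.9 M (mega) counts, the same range as all 27, and CPM here means counts per 1 M counts of the library after normalisation. Pairs of libraries within a group correlated at 0.985 to 0.989 and differed by more than sampling noise, so no pair was taken for 1 library deposited under 2 labels. EGF+TGFB replicate 3 stood apart from replicates 1 and 2 of its group on the second axis of a principal component analysis of the 6 libraries (scores of -40.8 against 28.0 and 17.5, 15.95% of the variance), whereas the first axis (47.6%) separated the groups. Mitochondrial transcripts took 1.51% to 1.77% of the counts with EGF+TGFB and 1.23% to 1.44% with OSM added, and the 10 most abundant rows took 8.97% to 9.80% against 10.3% to 10.9%. The part of either shift in the results was not tested. All 10 epithelial markers were found, and their summed level was 18450 to 21140 CPM without and 25130 to 27340 CPM with OSM, with 5 called higher and 2 lower. Of 8 fibroblast markers 6 stayed under 1 CPM (sum 70.5 to 82.95 against 92.1 to 100.7 CPM, with 0 called by edgeR or DESeq2 and 0 at an unadjusted p under 0.05). All 7 endothelial markers stayed under 1 CPM with EGF+TGFB (sum 1.27 to 1.71 against 2.16 to 2.445 CPM), and KDR alone was called. Of 8 immune markers 5 stayed under 1 CPM with TYROBP at 0 (sum 77.01 to 80.55 against 94.8 to 109.7 CPM, CD14 and CD68 higher), and all 4 adipocyte markers stayed under 1 CPM. In bulk RNA, fewer cells of a type and less RNA per cell cannot be told apart.

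When OSM was added to EGF+TGFB, 18 of 18 hypoxia and glycolysis genes, 8 of 14 complement genes and 6 of 13 acute-phase genes were called higher, against 12.8% of all rows, and 16 of 21 squamous differentiation genes were called lower, against 12%. By edgeR's quasi-likelihood test, 4114 of 16611 rows were called at an adjusted p under 0.05 (24.8%). Of these 2125 were higher (12.8% of rows tested) and 1989 lower (12%), and 5788 rows had an unadjusted p under 0.05. The median log2 fold change over all rows was 0.00. The 3 libraries with OSM lay wholly above the 3 without it for 20.2% of rows and wholly below for 17.5%. The division between directions moved with the libraries and the method used: leaving out 1 of the 6 at a time gave 41.9% to 45.7% of calls in the higher direction, against 51.7% with all of them. Of the 193 called genes on the 20 lists described below, 36 lost their call in at least 1 of those 6 fits. The division moved alike without a library of OSM or OSM+TGFB, which are outside the 6 (43.2% to 43.6% higher). It stayed at 51.6% to 52.1% without a library of PBS, EGF, TGFB or EGF+OSM. With all 27 libraries DESeq2 gave 46.4% higher and upper-quartile scaling 50.3%. The median log2 fold change over all rows was -0.0308 to -0.0194 in the 6 fits that each left out 1 of the 6 libraries.

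**Figure D1:**
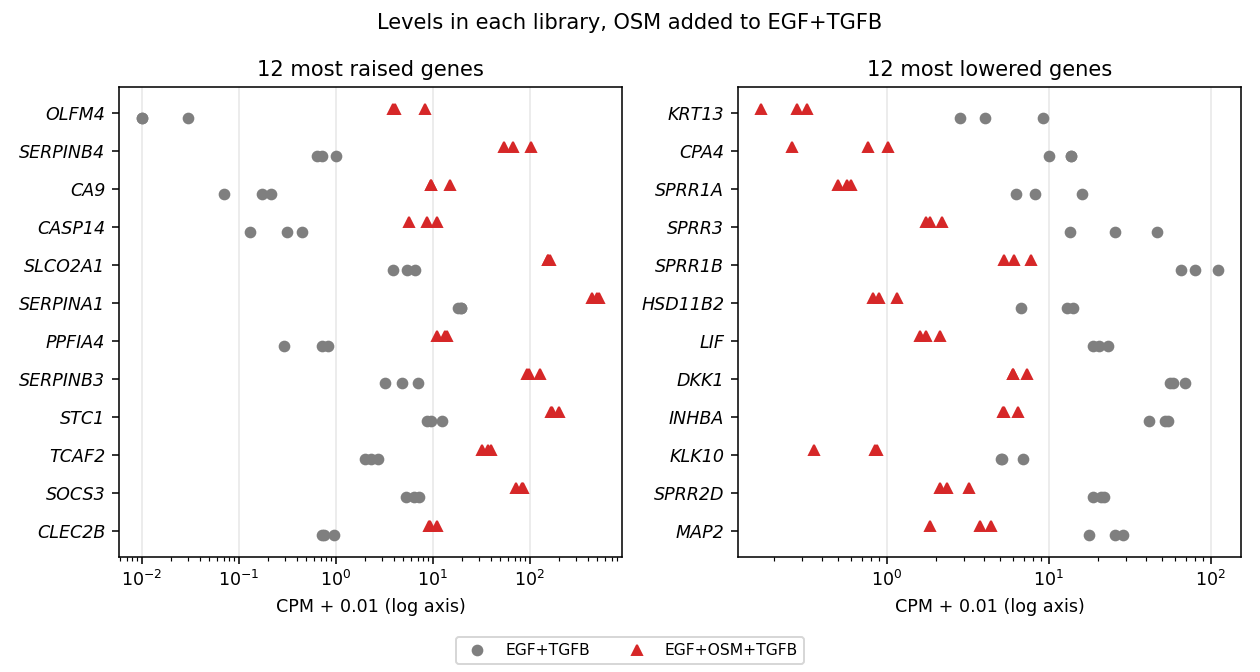
CPM + 0.01 (log axis) in each of the 6 libraries for the 12 protein-coding genes most raised and the 12 most lowered by OSM added to EGF+TGFB. Grey circles are EGF+TGFB and red triangles EGF+OSM+TGFB. The 2 groups do not overlap for any gene shown, since this was part of the rule that chose them, and the widest spread in the lowered genes is that of KRT13 and SPRR3, from 2.81 to 9.19 CPM and from 13.6 to 46.2 CPM with EGF+TGFB.

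The receptor genes of the pathway rose. OSMR, on chromosome 5 (chr5:38845858-38945596, plus strand, GRCh38, gene span of GENCODE v44), stood at 370.2, 350.5 and 298 CPM with EGF+TGFB and at 768, 769 and 698 CPM with OSM, a log2 fold change of 1.13 ± 0.07 (SE, edgeR adjusted p = 9.3e-12). All 3 libraries with OSM were thus above all 3 without it. The shared subunit IL6ST changed less, from 223 ± 13.5 to 288 ± 7.34 CPM (SD, n = 3, edgeR adjusted p = 2.7e-06). LIFR, the alternative OSM receptor chain, went from 10.1 ± 0.707 to 14.6 ± 1.73 CPM (SD, n = 3, edgeR adjusted p = 0.00419).

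Of the 14 receptor and JAK-STAT genes, 7 were called higher and 1 lower, against 12.8% and 12% of all rows, with a median of 0.22 on the log2 scale. STAT3 rose from 255, 253 and 227 CPM to 369.6, 379 and 363 CPM (0.60 ± 0.06, edgeR adjusted p = 1.1e-07), again with no overlap. The kinase gene JAK1 was the only member called lower, from 231 ± 14.3 to 193 ± 9.28 CPM (SD, n = 3). STAT2 and STAT5B were called higher by 0.39 and 0.16, but these calls ended without EGF+OSM+TGFB replicate 2 or EGF+TGFB replicate 3 for STAT2, and without any of the 6 libraries in turn for STAT5B. IL6R, JAK2 and TYK2 had log2 fold changes of -0.18, 0.24 and 0.07 and were not called.

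SOCS3, the gp130 feedback inhibitor (chr17:78356778-78360077, minus strand), held 6.38, 7.32 and 5.35 CPM with EGF+TGFB and 73.2, 82.7 and 85.1 CPM with OSM. No library without OSM came near any library with it, and the log2 fold change was 3.64 ± 0.13 (edgeR adjusted p = 1.7e-15). Among the 18 STAT3 feedback and target genes, 10 were called higher and 2 lower, against 12.8% and 12% of all rows, with a median of 0.34. BCL3, a nuclear IkB-like cofactor of NF-kB, rose by 1.44 ± 0.15 on the log2 scale, and BCL6, a transcriptional repressor, by 1.13 ± 0.14. NNMT, which methylates nicotinamide, rose from 152 ± 14.7 to 359 ± 14.4 CPM, and the tumour necrosis factor receptor TNFRSF1A from 151 ± 1.63 to 228 ± 6.13 CPM (SD, n = 3). The 2 called lower were the kinase PIM1 (-0.72 ± 0.15) and the transcription factor KLF6 (-0.30 ± 0.08). Other SOCS family members were not called: SOCS2 stood at 33.2 ± 1.59 and 33.3 ± 1.05 CPM, and CISH at 4.63 ± 0.415 and 5.07 ± 0.2501 CPM (SD, n = 3). The calls of CEBPD, IRF1, JUNB and MCL1, all higher, ended when 1 library was left out: EGF+OSM+TGFB replicate 2 or EGF+TGFB replicate 1 or 2 for CEBPD (edgeR adjusted p = 0.0518 to 0.152), any but EGF+OSM+TGFB replicate 3 for IRF1 (0.0527 to 0.14), EGF+OSM+TGFB replicate 2 for JUNB (0.0535) and EGF+OSM+TGFB replicate 1 for MCL1 (0.0536).

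Acute-phase proteins, which the liver secretes in inflammation, were among the genes with the largest changes. SERPINA1, encoding alpha-1-antitrypsin (chr14:94376747-94390693, minus strand), had 19.8, 19.7 and 18.2 CPM with EGF+TGFB and 499.6, 522 and 441 CPM with OSM (4.66 ± 0.10, edgeR adjusted p = 1.1e-20). The groups stood far apart and both were tight. Its relative SERPINA3, alpha-1-antichymotrypsin, had a wider spread: 139, 169.95 and 82.5 CPM against 612, 791 and 427 CPM, still without overlap (2.22 ± 0.33, edgeR adjusted p = 3.1e-05). LRG1, a leucine-rich secreted glycoprotein, rose from 0.676 ± 0.1103 to 2.68 ± 0.551 CPM, and serum amyloid SAA2, whose reads may be shared with the near-identical SAA1, from 15.6 ± 2.12 to 38.7 ± 12.7 CPM (SD, n = 3). Of 19 listed genes 13 passed the filter, 6 were called higher by edgeR and 0 lower (7 and 0 by DESeq2, 11 and 0 at an unadjusted p under 0.05), and the median was 1.97. Fibrinogen genes stayed near the detection limit: FGA had 14 counts over the 3 libraries with OSM and 0 without it, at least 5.28-fold higher on a floor of 3 counts over the group, and FGG had 20 against 3, a ratio of 7.55 with an exact 95% interval of 2.24 to 39.7 that covers counting error only. The FGA call ended in 5 of the 6 fits without a library, all but that without EGF+OSM+TGFB replicate 1, and the FGG call ended without EGF+TGFB replicate 1 (edgeR adjusted p = 0.0604). LCN2, another acute-phase gene, had a log2 fold change of -0.28 and was not called.

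Complement genes showed the same direction, with 8 of 14 called higher, 0 lower and a median of 0.80, the same counts by DESeq2 and at an unadjusted p under 0.05. The classical-pathway proteases C1S and C1R lie side by side on chromosome 12. C1S had 1.16, 1.09 and 1.23 CPM without and 6.63, 7.63 and 8.37 CPM with OSM (2.70 ± 0.22, edgeR adjusted p = 3.8e-09). C1R rose by 2.29 ± 0.18, the inhibitor SERPING1 of both proteases by 1.96 ± 0.30, and the alternative-pathway protease CFB by 2.24 ± 0.31. The symbol CFB has 7 rows among those tested, of which the one with the highest counts is given, so the division of its reads is uncertain. The fluid-phase regulator CFI rose by 2.36 ± 0.27, and the membrane regulator CD59 from 1366 ± 119.98 to 1982 ± 145 CPM (SD, n = 3). CD46 was called by 0.24, a call that ended without EGF+OSM+TGFB replicate 1 or EGF+TGFB replicate 3. C3, the central component, was not called (217 ± 26.7 and 205 ± 24.4 CPM, SD, n = 3).

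The letters TTCNNNGAA, the core that STAT dimers bind, were searched in the 250 bases before each RefSeq gene start (GRCh38.p14), where the motif reads the same on both strands. They were present in 5.46% of 16700 windows of tested genes, 6.57% of those of genes called higher and 4.21% of those called lower, in 3 of 10 acute-phase windows and in 4 of 15 complement windows. A list that moved less, the interferon-stimulated genes, held them in 9 of 26 windows (34.6%). Of the 12 most raised genes 9 had a window, with 0 matches in 12 windows, so the promoters shown were chosen after the matches were seen. The stretches of CFB (chr6:31945991-31946020, plus strand) and LRG1 (chr19:4540087-4540286, minus strand) are given 5′ to 3′ because both genes rose and their windows hold the motif, which is in capitals.
CFB: cccgcttggatgTTCCGGGAAagtgatgtg
LRG1: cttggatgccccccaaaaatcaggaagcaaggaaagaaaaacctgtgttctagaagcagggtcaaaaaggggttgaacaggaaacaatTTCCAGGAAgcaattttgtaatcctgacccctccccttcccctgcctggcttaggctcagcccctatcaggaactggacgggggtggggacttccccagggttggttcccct
The match begins 92 bases before the start in CFB and 162 bases before it in LRG1, and describes letters, not binding.

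The hypoxia and glycolysis genes rose as a whole list: 18 of 18 were called higher, against 12.8% of all rows, with a median of 1.38 against 0.00. HIF1A, the oxygen-regulated subunit of the hypoxia-inducible factor (chr14:61695513-61748259, plus strand), had 356, 341 and 342 CPM with EGF+TGFB and 1072, 1051 and 1087 CPM with OSM (1.63 ± 0.05, edgeR adjusted p = 1.7e-17). The replicates within each group differed by far less than the groups. CA9, a carbonic anhydrase often used as a hypoxia marker, went from 0.165, 0.0608 and 0.206 CPM to 14.98, 9.59 and 9.72 CPM (6.40 ± 0.36, edgeR adjusted p = 2.4e-12). EGLN3, an oxygen-sensing prolyl hydroxylase that marks HIF proteins for destruction, rose from 9.57, 7.23 and 5.896 CPM to 67.5, 57.8 and 44.6 CPM (2.90 ± 0.20, edgeR adjusted p = 2.8e-10). CA9 and EGLN3 varied more between replicates than HIF1A, yet neither overlapped between groups.

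Enzymes of glycolysis, several of them already at high levels, rose by smaller factors. Glucose transporter SLC2A1 rose by 1.36 ± 0.06 on the log2 scale, hexokinase HK2 by 1.24 ± 0.11, phosphoglycerate kinase PGK1 by 1.40 ± 0.07 and lactate dehydrogenase LDHA by 0.96 ± 0.05. GAPDH itself moved from 3405 ± 18.04 to 6486 ± 265 CPM (SD, n = 3), a 1.91-fold change in a gene often used as a loading control. PDK1, which turns pyruvate away from the mitochondria, rose from 16.3, 14.5 and 15.9 CPM to 59.2, 57.7 and 54.9 CPM. The mitophagy gene BNIP3 rose by 2.11 ± 0.09, the angiogenic factor VEGFA by 1.45 ± 0.13, adrenomedullin ADM by 1.92 ± 0.13 and the stress gene NDRG1 by 2.02 ± 0.11. PFKP had the smallest change of the list, 0.23 ± 0.05, and its call ended without EGF+OSM+TGFB replicate 1 or EGF+TGFB replicate 3.

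The letters ACGTG, the core of the hypoxia response element, were found on either strand in 14 of 26 promoter windows of this list (53.8%, 11 of 16 genes with a window) and in 21.6% of all tested windows. CA9 (chr9:35673898-35673927, plus strand), LDHA (chr11:18394313-18394512, plus strand) and BNIP3 (chr10:131981974-131982173, minus strand) are shown because they rose and hold the motif. Capitals mark it on either strand (ACGTG or CACGT), and CACGTG holds both.
CA9: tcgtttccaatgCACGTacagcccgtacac
LDHA: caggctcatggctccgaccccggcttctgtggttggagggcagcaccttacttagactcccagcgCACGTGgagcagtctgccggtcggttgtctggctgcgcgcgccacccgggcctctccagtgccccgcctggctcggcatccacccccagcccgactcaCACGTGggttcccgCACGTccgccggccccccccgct
BNIP3: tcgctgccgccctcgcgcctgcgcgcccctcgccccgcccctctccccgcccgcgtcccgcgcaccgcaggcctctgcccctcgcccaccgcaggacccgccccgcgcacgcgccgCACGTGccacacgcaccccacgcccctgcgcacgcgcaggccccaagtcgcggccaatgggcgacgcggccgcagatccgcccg
CA9 has its match 18 bases before the start, LDHA 5 matches counted by strand, and BNIP3 2. ACGTG was also found in 23.5% of windows of genes called higher and 18.3% of those called lower. Other lists varied. It was in 5 of 12 G1 windows and 6 of 16 mitosis windows, lists with 0 members called higher, and in 0 of 23 S100 and SERPINB windows. This motif was not among those planned beforehand.

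The genes of squamous differentiation, whose products build the cornified envelope of stratified epithelium, fell. Of 21 tested genes 16 were called lower and 1 higher, with a median of -2.12. SPRR1B, a small proline-rich precursor of that envelope (chr1:153031203-153032900, plus strand), had 65.2, 79.6 and 111 CPM with EGF+TGFB and 5.26, 7.704 and 6.08 CPM with OSM (-3.76 ± 0.23, edgeR adjusted p = 1.0e-10). SPRR3 went from 13.6, 25.5 and 46.2 CPM to 1.84, 2.196 and 1.72 CPM (-3.88 ± 0.50, edgeR adjusted p = 7.3e-06). Its 3 libraries without OSM differed more than 3-fold among themselves, and the highest was EGF+TGFB replicate 3. That library was the highest of its group as well for SPRR1B, SPRR1A (6.301, 8.21 and 15.9 CPM), KRT13 (2.81, 4.01 and 9.19 CPM) and KRT10 (32.4, 45.9 and 68.7 CPM). In PBS, EGF and TGFB, replicate 3 was likewise the highest for SPRR3, SPRR1B, SPRR1A and KRT13, so this was not particular to EGF+TGFB.

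Without EGF+TGFB replicate 3 the list kept 16 members lower and 1 higher, its median was -1.82, and KRT13, SPRR1A and SPRR3 changed by -3.83, -3.78 and -3.41 in place of -4.37, -4.18 and -3.88. SPRR genes are near-identical in sequence, and the division of reads among them is uncertain. The mucosal keratin KRT4 fell from 1.16, 3.14 and 10.4 CPM to 0.122, 0.174 and 0.09405 CPM. The desmosomal cadherin DSG1 had 92 counts without OSM and 2 with it, a ratio of 40.6 with an exact 95% interval of 10.9 to 340.5 (counting error only). Involucrin IVL fell by 1.02 and suprabasin SBSN by 1.87 on the log2 scale. The kallikrein proteases KLK5 and KLK7, which shed cornified cells, fell by 2.12 and 2.12, and their relative KLK10 by 3.06. TGM1, the transglutaminase that crosslinks the envelope, was the member called higher, from 8.05 ± 3.02 to 16.5 ± 0.249 CPM (SD, n = 3), and that call ended without EGF+TGFB replicate 1 (edgeR adjusted p = 0.0691) or 2 (edgeR adjusted p = 0.0507). Calls of 3 lower members ended too: CALML3 without EGF+OSM+TGFB replicate 1 or EGF+TGFB replicate 2 (edgeR adjusted p = 0.0808 to 0.0821), DSC2 without EGF+OSM+TGFB replicate 3 or EGF+TGFB replicate 1 or 2 (0.0731 to 0.126), and KLK6 without EGF+OSM+TGFB replicate 1 or 3 or EGF+TGFB replicate 2 (0.0529 to 0.0672).

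**Figure D2:**
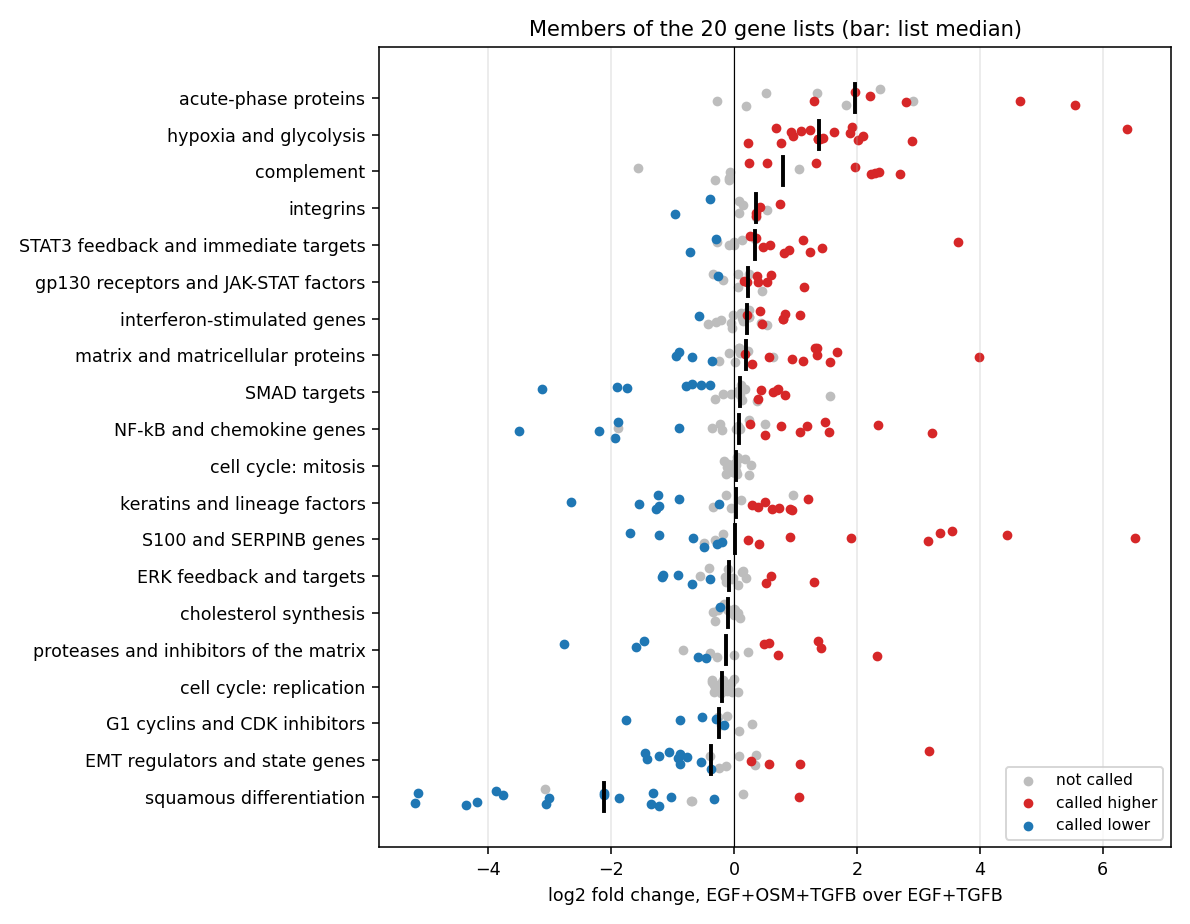
Log2 fold change (EGF+OSM+TGFB over EGF+TGFB) of each tested member of the 20 gene lists. Each point is a gene, and the bar marks the list's median. All 18 hypoxia and glycolysis genes lie above 0, and most squamous differentiation genes lie below it (median -2.12). Of the cell-cycle lists, mitosis lies around 0 (median 0.04, 10 of 16 above 0). Replication lies mostly a little below 0 (median -0.19, 2 of 16 above 0).

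The letters TGANTCA, which AP-1 factors bind and which read the same on both strands, occurred in 6 of 20 promoter windows of the squamous list (30%) against 4.96% of all windows. SPRR1B (chr1:153030953-153031152, plus strand) and SPRR3 (chr1:153001499-153001698, plus strand) are shown as the strongly lowered pair that holds it, in capitals.
SPRR1B: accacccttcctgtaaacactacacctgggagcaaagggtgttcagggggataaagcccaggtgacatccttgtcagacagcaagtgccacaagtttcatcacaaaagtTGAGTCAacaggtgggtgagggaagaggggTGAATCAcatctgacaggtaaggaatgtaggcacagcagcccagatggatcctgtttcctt
SPRR3: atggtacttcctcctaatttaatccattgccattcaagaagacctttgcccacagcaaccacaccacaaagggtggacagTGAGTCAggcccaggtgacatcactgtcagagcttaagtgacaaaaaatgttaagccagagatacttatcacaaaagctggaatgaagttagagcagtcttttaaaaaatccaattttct
SPRR1B holds 2 matches, 141 and 111 bases before the start, and SPRR3 holds 1, 170 bases before it. TGANTCA was also found in 6.13% of windows of genes called higher and 6.08% of those called lower. Lists that went both ways held it at 7 of 23 S100 and SERPINB windows (30.4%) and 7 of 27 NF-kB and chemokine windows (25.9%), and the ERK list at 0 of 20. It was in 3 of 12 windows of the 12 most raised genes and 4 of 11 windows of the 12 most lowered, so it was not particular to lowered genes.

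S100 and SERPINB genes, many of them in the same chromosomal clusters as epidermal genes, went both ways. Of 18, 9 were called higher and 6 lower, against 12.8% and 12% of all rows, with a median of 0.02. The antimicrobial calcium-binding pair S100A8 and S100A9 rose together: S100A8 from 22.3, 25.2 and 38.6 CPM to 327, 389.9 and 280.5 CPM (3.54 ± 0.18), and S100A9 from 67.2, 81.1 and 107 CPM to 897, 1016 and 688 CPM (3.35 ± 0.17). SERPINB4, a protease inhibitor of squamous epithelium, had 0.633, 0.993 and 0.7198 CPM without and 67.6, 103 and 54.05 CPM with OSM (6.53 ± 0.33, edgeR adjusted p = 4.7e-12). Its neighbour SERPINB3 had 3.22, 4.82 and 7.096 CPM against 99.1, 128 and 94.7 CPM (4.44 ± 0.26, edgeR adjusted p = 3.8e-11). SERPINB3 and SERPINB4 are near-identical, so the 2 fold changes may share reads. S100A7 and S100A12 rose by 1.91 ± 0.23 and 3.15 ± 0.34. SERPINB2, SERPINB7 and S100A14 fell by 1.22, 1.69 and 0.67 on the log2 scale.

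Keratins went both ways: over the 20 keratins and lineage factors, 8 were called higher and 7 lower, against 12.8% and 12% of rows. Among keratins of the basal layer, KRT5 and KRT14 rose, KRT15 fell by 1.55 on the log2 scale and KRT17 was not called. KRT5 stood at 3415 ± 87.004 without and 6399 ± 58.1 CPM with OSM, and its partner KRT14 at 1144 ± 73.5 and 2629 ± 36.1 CPM (SD, n = 3, edgeR adjusted p = 1.6e-11 and 2.3e-09). KRT6A, a keratin of wounded and proliferating epidermis, had 7218, 7756 and 6735 CPM against 14510.3, 14060.3 and 13379 CPM, with reads that near-identical KRT6 genes may share. The basal-cell transcription factor TP63 rose from 86.4 ± 2.48 to 123 ± 1.69 CPM (SD, n = 3). The lower members included KRT15 (-1.55), KRT23 (-2.66), KRT81 (-1.22) and the transcription factors SOX9 (-1.27) and FOXA1 (-0.90), and ELF3 and GATA3 were called lower as well. The ELF3 call ended without EGF+OSM+TGFB replicate 1 or 3 or EGF+TGFB replicate 2 (edgeR adjusted p = 0.0785 to 0.119), and the GATA3 call without EGF+OSM+TGFB replicate 1 or 3 or EGF+TGFB replicate 2 or 3 (0.051 to 0.0949). KRT17 and KRT7 were not called, at 5079 ± 682 against 5468 ± 437 CPM and 4201 ± 211 against 4045 ± 129 CPM (SD, n = 3).

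Targets of SMAD signalling, here under TGFB in both groups, went in both directions. Of 23, 6 were called higher and 7 lower, against 12.8% and 12% of all rows, with a median of 0.10. TGFBI, a secreted adhesion protein named for its induction by TGFB, rose from 12777, 13538 and 11601 CPM to 20086, 19901 and 18853 CPM (0.63 ± 0.09, edgeR adjusted p = 9.8e-06). The receptor gene TGFBR1 rose from 157 ± 15.7 to 280.03 ± 14.5 CPM, BHLHE40 from 267 ± 33.03 to 436 ± 32.2 CPM and the inhibitory SMAD7 from 36.8 ± 1.799 to 48.1 ± 3.03 CPM (SD, n = 3).

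Ligands of the TGFB family were among the lowered members. INHBA, which encodes the activin A subunit, fell from 54.4, 52.02 and 41.5 CPM to 5.29, 6.45 and 5.204 CPM (-3.13 ± 0.19, edgeR adjusted p = 7.6e-12). TGFB2 fell from 27.4, 27.1 and 16.8 CPM to 7.05, 5.93 and 5.99 CPM (-1.91 ± 0.24, edgeR adjusted p = 1.5e-06), while TGFB1 had 67.9 ± 2.28 and 72.5 ± 3.95 CPM (SD, n = 3) and was not called. No library with OSM reached the level of any library without it for INHBA or TGFB2. The BMP-responsive pair ID1 and ID3 moved apart, ID1 by 0.70 ± 0.14 and ID3 by -1.74 ± 0.10 on the log2 scale. The cytoskeletal target TAGLN and the matricellular CCN2 changed by -0.78 ± 0.18 and -0.53 ± 0.10. BMP2 was called lower, a call that ended without EGF+OSM+TGFB replicate 3 or EGF+TGFB replicate 2.

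Among EMT regulators and state genes, 4 of 20 were called higher and 10 lower, against 12.8% and 12% of all rows, with a median of -0.38. SNAI1, the zinc-finger repressor of E-cadherin, rose from 6.44, 5.84 and 5.11 CPM to 52.6, 57.1 and 47.5 CPM (3.17 ± 0.12, edgeR adjusted p = 2.5e-15), a 9.01-fold change without overlap. Its relatives did not share that size: SNAI2 stood at 132 ± 6.09 and 139.8 ± 8.56 CPM and was not called, TWIST1 had 3.69 ± 0.902 and 2.804 ± 0.237 CPM and was not called, and ZEB2 rose from 5.395 ± 0.408 to 7.97 ± 0.2697 CPM (SD, n = 3). The tight-junction genes CLDN1, CLDN4 and OCLN fell by 1.42, 1.45 and 1.05 on the log2 scale, and the polarity gene CRB3 by 0.92. EPCAM, an epithelial adhesion protein, fell from 11.3, 11.5 and 9.91 CPM to 4.75, 4.15 and 5.14 CPM. The epithelial regulators ESRP1, OVOL1 and OVOL2 fell by 0.55, 0.88 and 0.87. The cadherins moved in different directions: CDH2 (N-cadherin) fell from 98.6 ± 8.81 to 57.7 ± 1.38 CPM, and CDH3 (P-cadherin) rose from 759.6 ± 94.3 to 1599 ± 129.8 CPM (SD, n = 3). CDH1 (E-cadherin) was called lower by 0.37 and VIM (vimentin) higher by 0.28. The CDH1 call ended without EGF+OSM+TGFB replicate 3 or EGF+TGFB replicate 1 or 2, and the VIM call without EGF+OSM+TGFB replicate 1 or EGF+TGFB replicate 3.

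Matrix and matricellular genes had 11 of 24 called higher and 4 lower, against 12.8% and 12% of all rows, with a median of 0.20. Tenascin C (TNC) rose from 1164, 1208 and 827 CPM to 3459.7, 3376 and 3380.5 CPM (1.67 ± 0.16, edgeR adjusted p = 3.8e-08). The collagen-modifying enzymes PLOD2 and LOXL2 rose by 1.55 ± 0.10 and 1.32 ± 0.13, the crosslinking transglutaminase TGM2 by 1.35 ± 0.17, fibrillin FBN2 by 1.35 ± 0.16 and periostin (POSTN) by 1.12 ± 0.20. Thrombospondin 1 (THBS1) fell from 2292, 2348 and 2345 CPM to 1138, 1109.8 and 1385 CPM (-0.94 ± 0.22, edgeR adjusted p = 0.00262), and fibronectin (FN1) from 5994 ± 665 to 3742 ± 622 CPM (SD, n = 3). COL1A1 fell by 0.89 on the log2 scale. COL5A1 stayed scarce, with 32 counts against 2, a ratio of 18.1 with an exact 95% interval of 4.62 to 156 (counting error only). LAMA3 and LAMC1 were called higher and COL4A1 lower, and these calls ended with most libraries left out: any but EGF+OSM+TGFB replicate 3 and EGF+TGFB replicate 1 for LAMA3 (edgeR adjusted p = 0.0538 to 0.149), any but EGF+TGFB replicate 2 for LAMC1 (0.0573 to 0.13), and any but EGF+OSM+TGFB replicate 1 and EGF+TGFB replicate 3 for COL4A1 (0.0543 to 0.0806). The laminin chain LAMB3 was not called.

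Of 16 matrix proteases and inhibitors 6 were called higher and 5 lower, against 12.8% and 12% of all rows. TIMP1, an inhibitor of metalloproteases, rose from 702, 731 and 722 CPM to 1833, 2003 and 1889 CPM (1.41 ± 0.09, edgeR adjusted p = 5.5e-12), whereas TIMP2 and TIMP3 fell by 0.58 and 0.45 on the log2 scale. The gelatinase MMP9 fell from 100.5, 118 and 93.99 CPM to 12.8, 18.5 and 14.9 CPM (-2.77 ± 0.23, edgeR adjusted p = 9.2e-09). MMP10 fell by 1.60 and ADAMTS1 by 1.47, while MMP3, the stromelysin at 0.425 ± 0.131 CPM without OSM, rose to 2.15 ± 0.563 CPM (SD, n = 3). The membrane-bound MMP14 and the plasminogen activator PLAT rose by 0.49 ± 0.08 and 1.37 ± 0.13. Among 11 integrins 4 were called higher and 2 lower: ITGA5 rose from 817 ± 111 to 1373 ± 177 CPM and ITGB8 fell from 58.7 ± 2.77 to 30.1 ± 5.21 CPM (SD, n = 3). ITGAV and ITGB4 rose by 0.42 and 0.36 and ITGB5 fell by 0.40, and the ITGA2 call ended without EGF+OSM+TGFB replicate 1 or 2 or EGF+TGFB replicate 3.

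The NF-kB and chemokine list had 9 of 24 called higher and 5 lower, against 12.8% and 12% of all rows, with a median of 0.09. Leukemia inhibitory factor (LIF), another ligand of gp130, fell from 20.5, 23.1 and 18.6 CPM to 1.74, 1.603 and 2.13 CPM (-3.51 ± 0.21, edgeR adjusted p = 3.6e-12). IL11, also a ligand of gp130, fell from 10.3 ± 0.647 to 5.55 ± 0.791 CPM, whereas IL6 rose from 6.18 ± 1.42 to 14.2 ± 1.599 CPM (SD, n = 3). The neutrophil chemokine CXCL8 fell from 60.6, 57.7 and 45.3 CPM to 13.8, 16.6 and 12.3 CPM, and CCL20, which draws dendritic cells and lymphocytes, rose from 7.29, 6.73 and 6.58 CPM to 19.2, 21.02 and 19.7 CPM. CXCL2, CXCL3 and CXCL5 rose by 0.76 ± 0.19, 1.48 ± 0.20 and 2.34 ± 0.55, and CCL2 by 3.22 ± 0.78, from 0.0825, 0 and 0.103 CPM to 0.343, 0.593 and 0.6897 CPM. IL1B rose by 1.08 ± 0.25 and the receptor antagonist IL1RN fell by 1.89, with EGF+TGFB replicate 3 the highest of its group for IL1RN (5.34, 7.64 and 13.9 CPM). The call of IL1A (higher) ended without EGF+OSM+TGFB replicate 3 or EGF+TGFB replicate 1 or 2 (edgeR adjusted p = 0.0634 to 0.131), that of NFKBIA (higher) without EGF+OSM+TGFB replicate 2 or EGF+TGFB replicate 3 (0.085 to 0.0921), and that of CXCL11, lower at 12 against 2 counts, without any library but EGF+OSM+TGFB replicate 3 and EGF+TGFB replicate 3 (0.0685 to 0.222). NFKB1, NFKB2, RELB, TNFAIP3 and BIRC3, general readouts of NF-kB, were not called.

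Of the interferon-stimulated genes 7 of 24 were called higher and 1 lower, against 12.8% and 12% of all rows, with a median of 0.21. IRF9, the DNA-binding subunit of the interferon-activated STAT complex, rose from 7.65, 7.88 and 6.51 CPM to 12.97, 13.7 and 11.9 CPM (0.80 ± 0.13, edgeR adjusted p = 6.6e-05). IFI44, IFIT3 and IFI35 rose by 0.83 ± 0.19, 0.46 ± 0.10 and 0.43 ± 0.10, and the log2 fold changes of MX1 and ISG15 were 0.24 and -0.42 and were not called. The IFITM1 call (higher) ended without EGF+TGFB replicate 1, the OAS2 call (higher) without EGF+OSM+TGFB replicate 2, and the IFI27 call (lower) without EGF+OSM+TGFB replicate 1 or 3 or EGF+TGFB replicate 2.

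Targets and feedback genes of ERK, with EGF present in both groups, gave 3 of 21 called higher and 5 lower, against 12.8% and 12% of all rows, with a median of -0.08. Of the Sprouty genes, feedback inhibitors of the cascade, SPRY1 rose at a low level, from 0.5503, 0.385 and 0.7198 CPM to 1.96, 1.25 and 0.721 CPM (1.30 ± 0.27, edgeR adjusted p = 8.7e-04), SPRY2 fell and SPRY4 was not called. Replicate 3 with OSM lay next to replicate 3 without it for SPRY1, and the log2 fold change was 0.83 without EGF+OSM+TGFB replicate 1 (edgeR adjusted p = 0.0282). DUSP6, a phosphatase of ERK, had 61.1 ± 2.25 and 66.6 ± 7.87 CPM, and SPRY4 had 88.4 ± 3.71 and 83.6 ± 0.402 CPM (SD, n = 3). The EGF receptor ligands moved apart: HBEGF fell from 64.5, 77.4 and 63.1 CPM to 26.2, 32.5 and 32.1 CPM (-1.18 ± 0.10, edgeR adjusted p = 3.0e-09), and TGFA rose from 179, 172 and 165 CPM to 266, 246 and 273 CPM (0.61 ± 0.09, edgeR adjusted p = 8.4e-06). The immediate early gene EGR1 fell by 1.16, SPRY2 by 0.91 and IER3 by 0.38 on the log2 scale, while DUSP1 rose by 0.52 ± 0.07. The ETV4 call, lower, ended without EGF+OSM+TGFB replicate 1 or 2 or EGF+TGFB replicate 3.

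No member of the 2 cell-cycle lists was called in the main edgeR fit: 0 of 16 replication genes (median -0.19, 2 of 16 above 0) and 0 of 16 mitosis genes (median 0.04, 10 of 16 above 0). This depended on the model. With a replicate block 6 replication genes were called lower and 0 mitosis genes were called. With the block and only the 6 libraries, an alternative chosen after seeing the data, 12 replication genes were lower, and 2 mitosis genes were higher and 2 lower. An unadjusted p under 0.05 was reached by 3 replication genes, all lower, and 0 mitosis genes, and DESeq2 called 0 of either. Without EGF+TGFB replicate 2 or EGF+OSM+TGFB replicate 3, 2 replication genes were called lower, with list medians of -0.32 and -0.32. The proliferation marker MKI67 stood at 240.5, 219 and 358 CPM without and 256, 248 and 337 CPM with OSM (0.04 ± 0.21, edgeR adjusted p = 0.916), and the replication helicase subunit MCM2 at 57.6, 56.5 and 78.1 against 54.7, 48.3 and 61.3 CPM (-0.22 ± 0.14, edgeR adjusted p = 0.276). Replicate 3 was the highest in both groups for both genes, and the groups overlapped. Cyclin D1 (CCND1) fell from 233, 228 and 257 CPM to 125, 122 and 140.4 CPM (-0.89 ± 0.13, edgeR adjusted p = 1.7e-05) and CCND2 by 0.52. The other G1 members called, all lower, lost their call without EGF+OSM+TGFB replicate 1 (CCND3, edgeR adjusted p = 0.0711), without EGF+TGFB replicate 1 (CDK6, 0.0623), or without EGF+OSM+TGFB replicate 1 or 3 or EGF+TGFB replicate 3 (CDKN1C, 0.0526 to 0.081). Of 14 cholesterol synthesis genes 0 were called higher and 1 lower (also by DESeq2 and at an unadjusted p under 0.05), against 12.8% and 12% of all rows.

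The most raised genes outside these lists came from several functions. OLFM4, a secreted glycoprotein of epithelial crypts and neutrophils, had 0, 1 and 0 counts with EGF+TGFB and 160, 240 and 130 counts with OSM, a ratio per CPM of 600.1 with an exact 95% interval of 107.2 to 23750 that covers counting error only. SLCO2A1, the prostaglandin transporter, rose from 6.58, 5.41 and 3.94 CPM to 164, 156 and 154 CPM (4.88 ± 0.17, edgeR adjusted p = 1.7e-15). Stanniocalcin 1 (STC1), a secreted regulator of calcium and phosphate, rose from 12.6, 9.69 and 8.71 CPM to 199, 167 and 172 CPM (4.12 ± 0.15, edgeR adjusted p = 4.3e-15). That the groups do not overlap was part of the rule that chose these 3 genes. CASP14, a caspase of cornifying keratinocytes, rose by 4.96 ± 0.38, against the direction of most genes on the squamous list. PPFIA4 (a liprin), TCAF2 and CLEC2B (a C-type lectin) rose by 4.47 ± 0.38, 3.97 ± 0.12 and 3.63 ± 0.26.

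Among the most lowered genes outside these lists, the carboxypeptidase CPA4 fell from 13.7, 13.7 and 10.1 CPM to 0.759, 1.01 and 0.251 CPM (-4.22 ± 0.30, edgeR adjusted p = 3.3e-10). The Wnt antagonist DKK1 fell from 55.8, 58.7 and 69.2 CPM to 6.02, 7.32 and 5.99 CPM (-3.25 ± 0.12, edgeR adjusted p = 3.0e-15). HSD11B2, which inactivates cortisol, fell from 6.69, 12.97 and 14.1 CPM to 0.881, 1.15 and 0.815 CPM, and the microtubule protein MAP2 from 25.5, 28.8 and 17.8 CPM to 3.74, 4.39 and 1.85 CPM. Groups that do not overlap were again part of the rule, and HSD11B2 had its lowest control value in EGF+TGFB replicate 1.

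The same addition of OSM was then compared with its effect in the 3 other settings, which share no library with this one or with each other. OSM changed 10129 rows when given without other ligands (61.0%), 5481 when added to EGF (33.0%) and 9011 when added to TGFB (54.2%), against 4114 here (24.8%). Of the rows called here, 3222 were called without other ligands too (78.3% of those here, 31.8% of those there), 2579 of them in the same direction. With EGF 2608 were shared (63.4% and 47.6%), 2512 in the same direction, and with TGFB 3204 (77.9% and 35.6%), 2858 in the same direction. The correlation of log2 fold changes across all rows was 0.419, 0.504 and 0.518, as a description over genes, which are not independent replicates and share depth within a library. A total of 2084 rows were called in all 4 settings, 1004 of them higher throughout, 896 lower throughout and 184 in mixed directions.

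**Figure D3:**
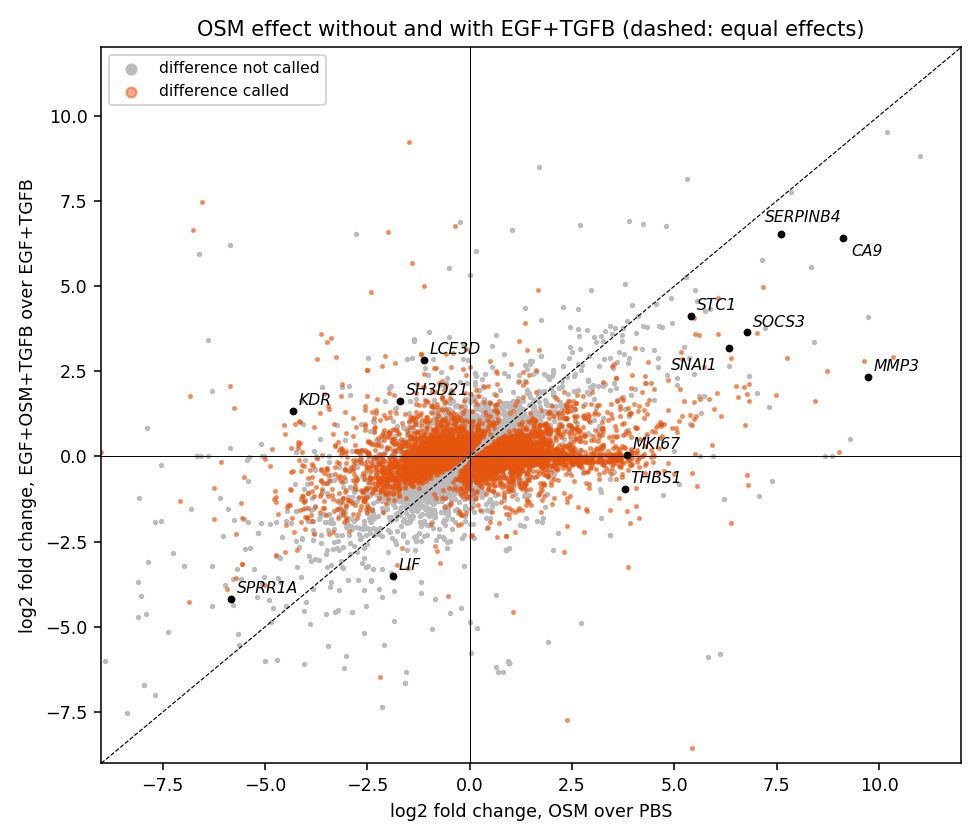
Log2 fold change of OSM in EGF+TGFB (vertical axis) against OSM over PBS (horizontal axis) for the rows tested. Orange points are rows whose 2 effects differ at an adjusted p under 0.05 and grey points are the rest, with the dashed line marking equal effects and 3 points outside the axes. Of the 1266 rows called in the same direction in both with effects that differ, 1154 have the smaller effect in EGF+TGFB, and 643 rows were called in opposite directions.

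Tested directly as a difference between the 2 effects, the OSM effect in EGF+TGFB differed from that without other ligands in 7513 rows (45.2%), from that with TGFB in 5483 (33.0%) and from that with EGF in 1452 (8.74%). The last count fell to 914 without EGF+OSM replicate 3 and to 927 without EGF+OSM+TGFB replicate 2. Among rows called in the same direction in both, the difference was called for 1266 against OSM without other ligands, with the smaller effect here in 1154 of them. Against OSM with TGFB the figures were 1207 and 1122, and against OSM with EGF 358 and 245.

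SOCS3 had its smallest OSM effect here. Its mean was 165 ± 19.7 CPM with OSM and 154 ± 12.2 CPM with OSM+TGFB, but 86.2 ± 4.15 CPM with EGF+OSM and 80.3 ± 6.27 CPM with EGF+OSM+TGFB (SD, n = 3). Without OSM it was 1.49 ± 0.318 CPM in PBS, 1.28 ± 0.2504 in EGF, 3.03 ± 0.173 in TGFB and 6.35 ± 0.984 in EGF+TGFB (SD, n = 3). The OSM effect here, 3.64, was lower than the 6.77 without other ligands, the 6.07 with EGF and the 5.67 with TGFB, and all 3 differences were called (edgeR adjusted p = 4.8e-11, 1.6e-07 and 3.0e-08). OSMR, which started higher, gained 1.13 here against 2.80 without other ligands and 1.27 with EGF, where the difference of -0.13 was not called (edgeR adjusted p = 0.46). With TGFB, OSMR rose from 166, 169 and 161 CPM to 826, 825 and 764 CPM. STAT3 gained 0.60 here against 1.16, 0.98 and 1.02, and all 3 differences were called.

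The cell-cycle lists differed between the settings. OSM raised 16 of 16 replication genes and 16 of 16 mitosis genes without other ligands (medians 2.30 and 3.42, against 32.4% of rows) and with TGFB (medians 0.95 and 2.17, against 28.9% of rows), and 0 of either list with EGF (medians 0.18 and 0.28, against 16.6% of rows) or here. The difference from OSM without other ligands was called lower for 16 of 16 in both lists, against 25.1% of rows, that from OSM with TGFB for 15 and 16 of them, against 19.1%, and that from OSM with EGF for 0 and 0 (5 and 0 lower at an unadjusted p under 0.05, 0 by DESeq2). Though not called, the difference from OSM with EGF was above 0 for 0 of 16 members in either list (medians -0.37 and -0.26). MKI67 averaged 21.5 ± 7.11 CPM in PBS and 309 ± 55.8 in OSM, 13.9 ± 2.11 in TGFB and 89.9 ± 19.95 in OSM+TGFB, and 519 ± 39.2 in EGF and 634 ± 66.1 in EGF+OSM (SD, n = 3). With EGF+TGFB it was already at 272 ± 74.8 CPM before OSM was added, and at 280.4 ± 49.6 with it (SD, n = 3).

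**Figure D4:**
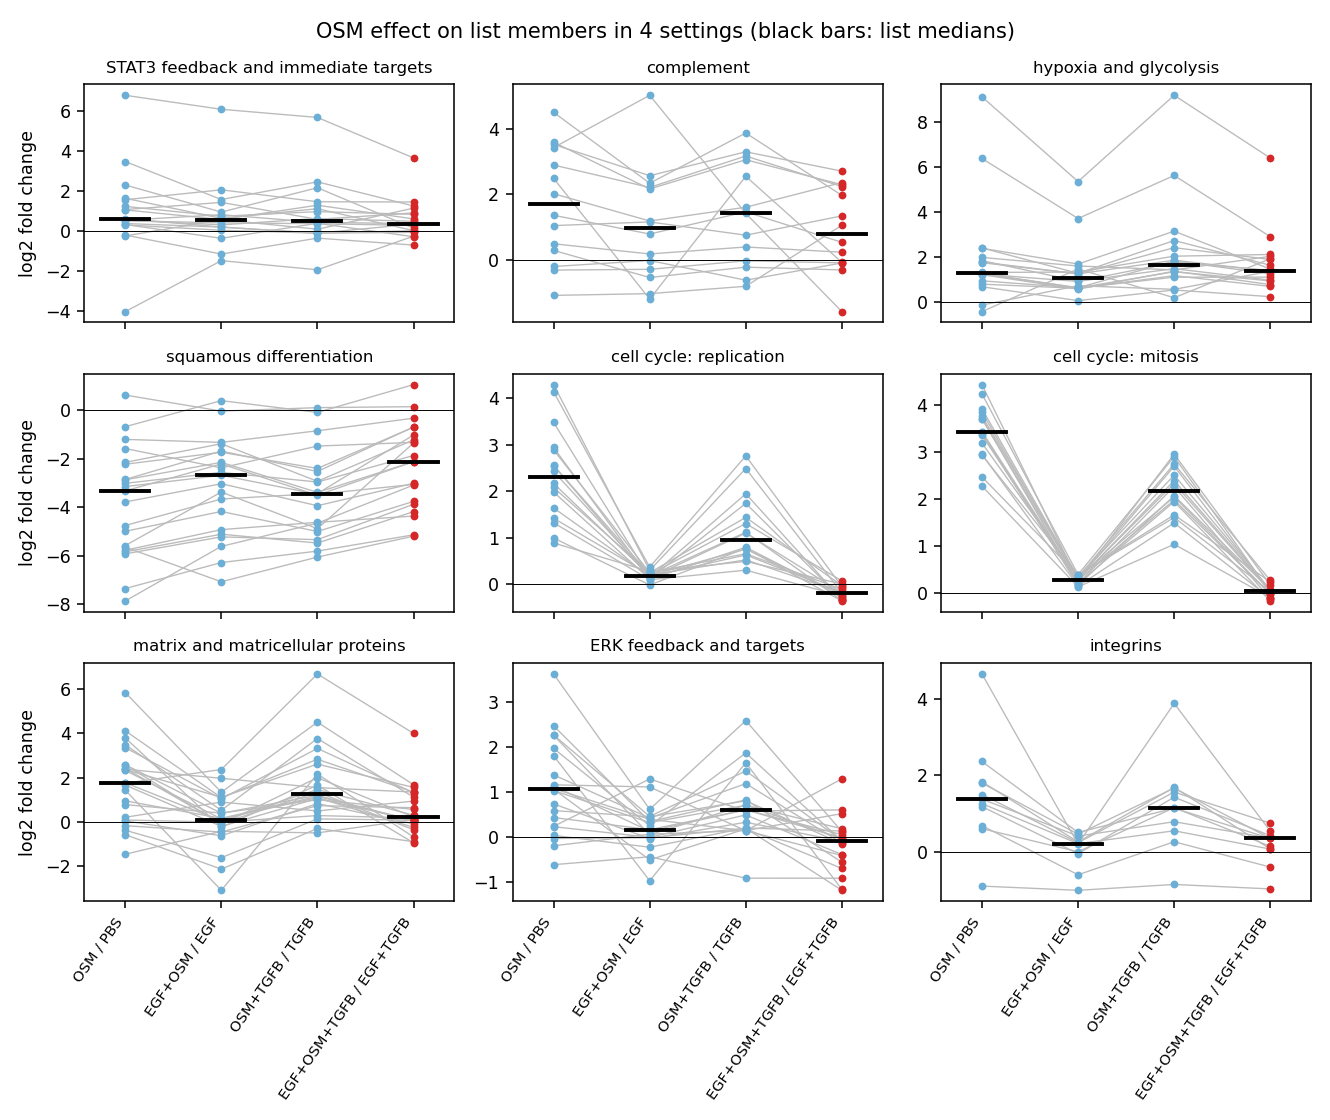
Log2 fold change of OSM for the members of 9 gene lists in 4 settings: without other ligands, with EGF, with TGFB and with EGF+TGFB. Each point is a gene and the black bars are medians. The cell-cycle medians are 2.30 and 3.42 without other ligands and -0.19 and 0.04 with EGF+TGFB, while the hypoxia and glycolysis medians run from 1.08 to 1.62 in all 4.

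Hypoxia and glycolysis genes rose in each setting, 16 of 18 without other ligands (2 fell, median 1.28), 17 with EGF (median 1.08), 17 with TGFB (median 1.62) and 18 here (median 1.38). The difference from OSM with EGF was called higher here for 7 of 18 and lower for 0, against 5.36% and 3.38% of rows (8 and 1 by DESeq2, 11 and 1 at an unadjusted p under 0.05). The difference from OSM with TGFB was called lower here for 13 and higher for 3 (median -0.48), against 19.1% and 14% of rows, and that from OSM without other ligands was lower for 8 and higher for 3, against 25.1% and 20.2%. Most members thus rose less here than with TGFB. HIF1A averaged 201 ± 3.77 CPM in PBS, 235 ± 12.2 in EGF, 225 ± 13.3 in TGFB and 346 ± 8.43 in EGF+TGFB, and with OSM added to each 1059 ± 45.98, 566 ± 24.2, 1489 ± 33.5 and 1069.9 ± 18.2 (SD, n = 3). The glucose transporter SLC2A1 changed by -0.15 without other ligands, 0.71 with EGF and 0.55 with TGFB against 1.36 here, with all 3 differences called (edgeR adjusted p = 2.9e-12, 3.1e-05 and 1.3e-07). ADM was likewise raised here by 1.92 and changed by -0.44 without other ligands, a difference of 2.35 ± 0.17 (edgeR adjusted p = 1.5e-10).

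Squamous differentiation genes, with a median of -2.12 here, fell in the other settings too. Their medians were -3.33 without other ligands, -2.68 with EGF and -3.47 with TGFB, with 20, 19 and 19 of 21 called lower, against 28.5%, 16.4% and 25.3% of rows. The difference was called in the direction of a smaller fall for 9, 3 and 10 members, against 20.2%, 5.36% and 14% of rows. Their starting levels differed too: SPRR1B averaged 656 ± 90.98 CPM in PBS, 559.8 ± 117 in TGFB, 233 ± 26.2 in EGF and 85.3 ± 23.4 in EGF+TGFB, and 20.5 ± 4.73, 17.5 ± 2.05, 12.9 ± 2.199 and 6.35 ± 1.24 with OSM added to each (SD, n = 3). IVL fell by 1.02 here against 4.76, 3.66 and 3.44, and all 3 differences were called (edgeR adjusted p = 3.9e-11, 2.1e-07 and 1.3e-08). It ended at 43.5 ± 4.505 CPM here and at 4.11 ± 0.342 with OSM and 5.06 ± 1.29 with EGF+OSM (SD, n = 3).

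Lists of attachment, matrix and growth factor feedback had higher medians for OSM without other ligands and with TGFB than with EGF or here. The matrix list had a median of 1.75 without other ligands (17 of 24 higher, 3 lower), 1.27 with TGFB (20 and 2), 0.09 with EGF (7 and 4) and 0.20 here. The share of all rows called higher was 32.4%, 28.9%, 16.6% and 12.8% in that order. The difference was called lower for 15 of 24 against OSM without other ligands (25.1% of rows) and for 17 against OSM with TGFB (19.1% of rows). The 11 integrins had medians of 1.38, 1.16, 0.22 and 0.35 in that order of settings, the ERK list 1.07, 0.61, 0.17 and -0.08, and the cholesterol list 0.41, 0.62, -0.11 and -0.09. Against the same shares of rows, acute-phase genes had 10 of 13 called higher in each other setting and complement genes 9 or 10 of 14, with at most 1 lower. Acute-phase medians were 5.15 without other ligands, 2.61 with EGF and 3.97 with TGFB against 1.97 here, and complement medians were 1.69, 0.97 and 1.44 against 0.80.

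**Figure D5:**
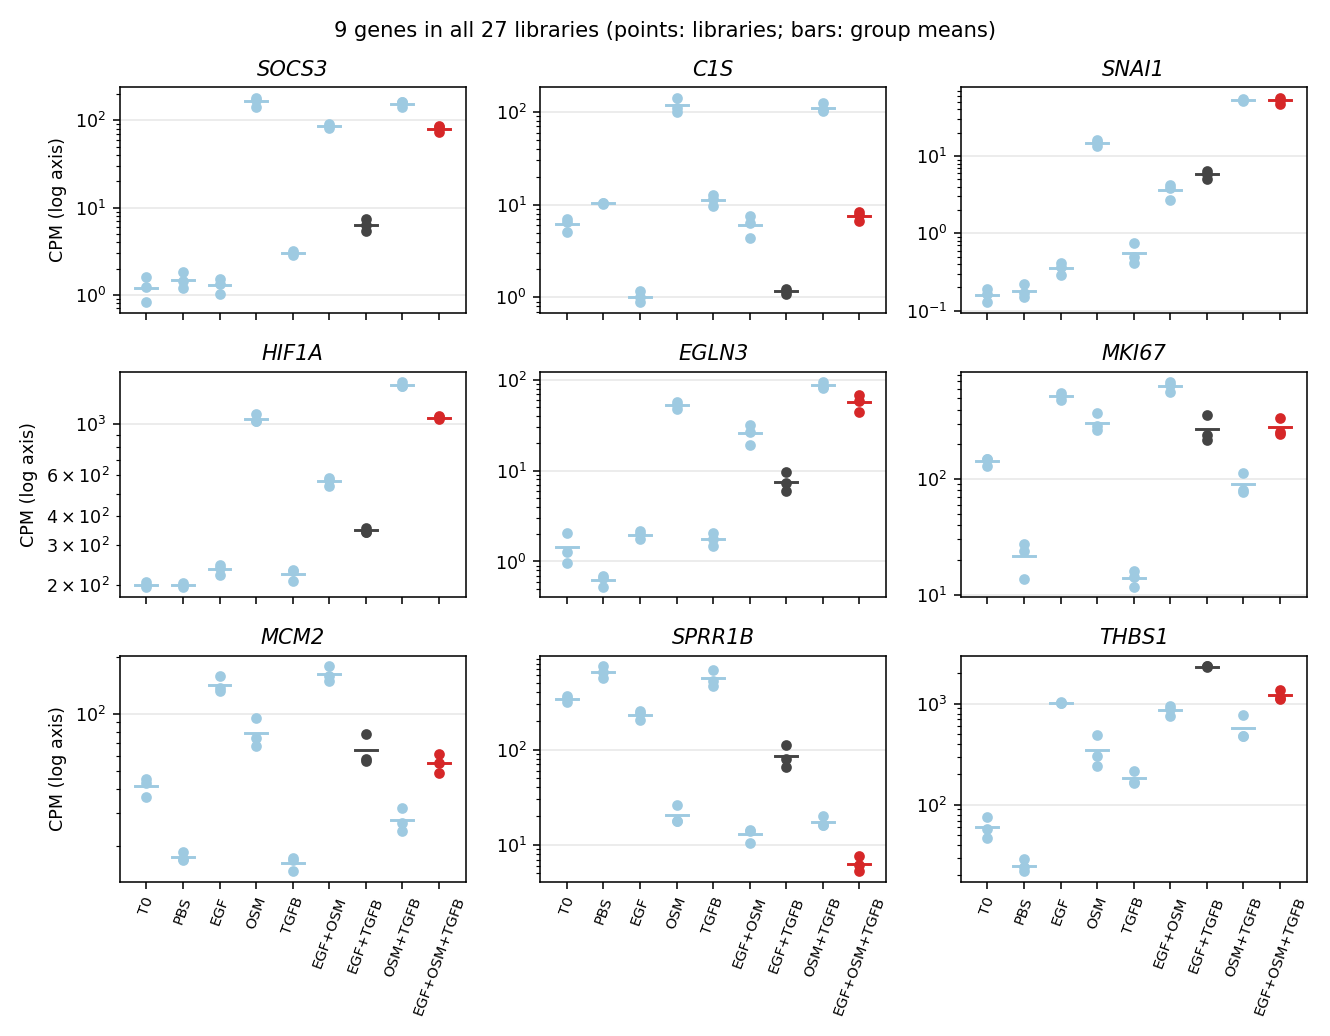
CPM (log axis) of 9 genes in all 27 libraries, 3 for each of the 9 groups. SOCS3 separates the groups with OSM (80.3 CPM or more on average) from those without it (6.35 CPM or less), MKI67 is lower in PBS (21.5 CPM) and TGFB (13.9 CPM) than in EGF+TGFB (272 CPM), and THBS1 is at its highest with EGF+TGFB (2328 CPM on average) and lower with OSM added (1211 CPM).

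Some genes turned direction. Called in both, 643 rows moved oppositely to OSM without other ligands (279 higher here), 346 oppositely to OSM with TGFB (121 higher here) and 96 oppositely to OSM with EGF (54 higher here). THBS1 rose with OSM from 25.01 ± 3.53 to 346 ± 127 CPM without other ligands and from 183 ± 28.1 to 577 ± 169 with TGFB, and fell from 2328 ± 31.4 to 1211 ± 151 here (SD, n = 3). AKAP12, a kinase anchoring protein, rose by 2.65 and 1.34 in those settings and fell by 1.47 here. EGR1 rose by 1.81 and 1.65 and fell by 1.16, and the protease inhibitor TFPI2 rose by 4.05 and 2.30 and fell by 1.46. FN1 rose with OSM by 1.43 without other ligands and 2.16 with TGFB, and fell by 3.09 with EGF and 0.68 here. The metalloprotease MMP10 rose from 1.08 ± 0.0963 to 11.6 ± 4.22 CPM with TGFB and fell from 23.3 ± 7.77 to 7.69 ± 2.27 here, and ADAMTS1 rose from 2.46 ± 0.0152 to 9.48 ± 1.01 CPM with EGF and fell from 6.05 ± 0.286 to 2.18 ± 0.119 here (SD, n = 3). In the other direction, monoamine oxidase MAOA fell in each of the other settings (-1.13, -0.75 and -1.22) and rose by 1.5 ± 0.20 here, from 10.8, 10.8 and 15.3 CPM to 36.98, 34.1 and 32.4 CPM, and all 3 differences were called (edgeR adjusted p = 5.8e-08, 1.9e-05 and 8.7e-08). SH3D21 fell from 11.5 ± 1.53 to 3.51 ± 0.282 CPM without other ligands and rose from 4.66 ± 0.311 to 14.6 ± 0.843 here (SD, n = 3).

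Of the 4114 rows called here, 307 were called in none of the other 3 settings, and for 21 of these the effect also differed from each of the other 3. The chemokine-scavenging receptor ACKR3 had 1.84, 2.11 and 2.16 CPM with EGF+TGFB and 11.5, 10.6 and 9.94 CPM with OSM (2.39 ± 0.19, edgeR adjusted p = 5.4e-10), and log2 fold changes of -0.09, 0.31 and 0.12 elsewhere. Its levels without OSM differed widely, at 3.12 ± 0.477 CPM in PBS, 0.342 ± 0.0683 in EGF and 20.6 ± 2.62 in TGFB (SD, n = 3), and its level with OSM here lay between those of PBS and TGFB. MXI1, an antagonist of MYC, rose by 1.14 ± 0.14 and HES1, a Notch target, by 0.49 ± 0.11. HBEGF, described above, fell by 1.18 and had log2 fold changes of -0.03, -0.01 and 0.20 elsewhere, and the desmosomal plakophilin PKP2 and the transcription factor FOXC1 fell by 0.70 and 0.57.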

How the data were processed

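Polyadenylated RNA of 27 libraries (9 groups of 3) was sequenced from a stranded kit, per the labels' protocols. The deposited table holds estimated counts for 40487 gene rows, given as whole numbers by the authors. The submitters' processing notes name Trim Galore 0.4.3, cutadapt 1.10, FastQC 0.11.5, kallisto 0.46.2, R 3.5.0 and the builds GRCh38.p5 and hg38, while the strand setting and the step from transcripts to genes were not given in the sources used here. Without a stated strand setting, a gene and its antisense partner cannot be told apart. Of the rows, 13156 held 0 in all libraries, and 7165 had no symbol (0.324% of counts).

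Rows passing edgeR's expression filter (16611) were fitted in edgeR 4.0.16 (R 4.3.3, robust quasi-likelihood test, TMM factors of 0.867 to 1.12, prior count 0.125) with all 27 libraries sharing 1 estimate of spread (18 residual degrees of freedom, biological coefficient of variation 10.1%). P-values were Benjamini-Hochberg adjusted over all rows and called under 0.05. Differences between OSM effects were contrasts in the same fit. Where several rows carry a symbol, the one with the highest counts is given. Gene spans are those of GENCODE 44, and promoter windows those of RefSeq, with a window for 11408 of 14872 tested symbols.

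Named genes were the 12 most raised and 12 most lowered protein-coding genes (called, at least 5 CPM, no overlap), the 4 most positive and 4 most negative per difference, up to 5 called genes per list (3 higher, 2 lower) and the receptor genes with STAT3 and SOCS3. Other genes were named after their values were seen, and the members and lists were chosen with earlier results of these data known. A floor of 3 counts was used for genes at 0, and intervals are exact at 95%. On simulated counts for 16611 rows, the test called 37 of 50 genes changed 1.5-fold, 42 of 50 at 2-fold, 49 of 50 at 4-fold and 50 of 50 at 0.25-fold, with 14 unchanged rows called. Alternatives were DESeq2 1.42.0, upper-quartile scaling, no filter, fewer libraries, a replicate block, a fold limit, a stricter adjusted p and leaving out each library. Results for some list members are not reported here.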

Additional observations from a re-analysis of the deposited data

Results flagged for a closer look

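These results stand out because the OSM effect in EGF+TGFB differed, by a test of the difference itself in edgeR, from the OSM effect in another setting. This held for 7513 rows against OSM without other ligands, 1452 against OSM with EGF and 5483 against OSM with TGFB. The genes below had the most positive or most negative differences, given as log2 values.

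Against OSM without other ligands, the effect was more positive for INO80B-WBP1 (6.12), BEST2 (5.77), the vascular growth factor receptor KDR (5.65) and DAPL1 (5.32). KDR rose by 1.34 ± 0.21 here and fell by 4.31 there. The effect was more negative for the decoy receptor TNFRSF6B (-11.11), haptoglobin HP (-7.44), the metalloprotease MMP3 (-7.40) and SCG5 (-7.31). TNFRSF6B had 0 counts over the PBS libraries and 3540 with OSM, at least 1281-fold higher, and here rose from 4.98, 4.62 and 4.83 to 19.5, 25.6 and 18.9 CPM. MMP3 had 1 count over the PBS libraries and 1105 with OSM, a ratio of 1200.0 with an exact 95% interval of 214.9 to 47420. INO80B-WBP1 is a readthrough transcript, and TNFRSF6B overlaps a neighbouring gene, so their reads are uncertain. The HP difference lost its call without the expression filter (edgeR adjusted p = 0.0635) and without EGF+TGFB replicate 2 (0.052) or 3 (0.443).

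Against OSM with EGF, the effect was more positive for TMEM265 (9.84), the mucin MUC21 (4.37), GDPD3 (2.83) and the transcription factor MAF (2.77). TMEM265 was listed with 394 counts over the EGF libraries and 0 with EGF+OSM, at least 115-fold lower, and was not called here (0.00 ± 0.48, edgeR adjusted p = 0.998). Within the OSM group it stood at 0, 3.59 and 3.38 CPM, so its counts and this difference are uncertain. MUC21 has 5 rows, and its difference lost its call without the filter (edgeR adjusted p = 0.0879) and without any 1 of the 12 libraries except EGF+TGFB replicate 2 and EGF+OSM+TGFB replicate 3 (0.0505 to 0.235). The effect was more negative for the protease ADAMTS1 (-3.41), the calcitonin receptor-like receptor CALCRL (-2.81), the chemokine receptor CXCR1 (-2.56) and SOCS3 (-2.43).

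Against OSM with TGFB, the effect was more positive for INO80B-WBP1 (5.72), KDR (4.93), the protease ASPRV1 (4.52) and the glutathione peroxidase GPX2 (4.13). It was more negative for MMP3 (-6.67), MMP10 (-5.03), the innate receptor TREM1 (-4.66) and AMPH (-4.64). TREM1 rose here by 2.04 ± 0.24 and with TGFB by 6.69. ASPRV1 and GPX2 were already low with EGF+TGFB, where a further fall could hardly show. ASPRV1 had 0.330, 0.122 and 0.446 CPM with EGF+TGFB and 7.64, 8.22 and 14.4 CPM with TGFB. GPX2 had 0.523, 0.648 and 0.548 CPM with EGF+TGFB and 16.5, 18.5 and 20.3 CPM with TGFB.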

How the results depend on the processing

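Among the values followed through the alternatives, no called value changed sign, while MKI67 and CCNB1, which were not called, and 4 list medians near 0 did. These values cover 167 genes, 24 differences and the list medians, not all called rows. The count of 4114 rows called was 4278 with DESeq2, 4175 with upper-quartile scaling, 3634 without the filter, 3588 with only the 6 libraries, 2800 at an adjusted p under 0.01, and 3404 to 3774 (1506 to 1696 higher, 1898 to 2125 lower) with each of the 6 libraries left out. A fold limit of 2, put on the estimates of called rows after the test, left 934 rows (485 higher and 449 lower). For the differences from OSM without other ligands, with EGF and with TGFB it left 2314, 333 and 1430. A change beyond 2-fold was not itself tested. Leaving out 1 library gave 6793 to 7441 rows for the first difference, 914 to 1584 for that from OSM with EGF and 4766 to 5278 for the last, and an adjusted p under 0.01 left 670 for the difference from OSM with EGF. Leaving out a replicate of OSM or of OSM+TGFB, none of them among the 6 libraries, gave 43.2% to 43.6% of the main calls as higher. The cause was not tested.

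Same-numbered replicates of the 2 groups deviated together with correlations of 0.0353, 0.0384 and 0.0602, against -0.0715 to 0.0342 for replicates with different numbers. All these values are small, and the main fit did not pair the numbers. Some genes did vary with the number. SERPINA3 was highest in replicate 2 and lowest in replicate 3 of every treated group, and MKI67 was highest in replicate 3. Such shared variation stayed in the spread of the main fit. The replicate block gave 4830 calls, 5322 with only the 6 libraries as well (an alternative chosen after seeing the data), and 2411 rows for the difference from OSM with EGF. Under the block 6 replication genes were called lower, and 12 with only the 6 libraries, where 8 cholesterol genes were too.

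The log2 fold changes of 167 genes were followed through all alternatives, a set that leaves out many of the list members named above. In this set the call was lost in 20 of the fits that left out 1 library (8 genes) and gained in 1. With the other alternatives it was lost in 2 and gained in 10 (4 genes). Over the 193 called list members, 36 lost their call without at least 1 library. Leaving out 1 library moved 15 list medians (6 lists) by more than the spread between replicates. The complement median, 0.80, ran from 0.54 (without EGF+TGFB replicate 1) to 1.32 (with only the 6 libraries). The matrix median of 0.20 was 0.11 without EGF+OSM+TGFB replicate 1, the integrin median of 0.35 was 0.18 without EGF+TGFB replicate 3, the NF-kB and chemokine median of 0.09 was 0.25 without EGF+TGFB replicate 2 and 0.04 without EGF+OSM+TGFB replicate 2, and the replication median of -0.19 ran from -0.07 (without EGF+TGFB replicate 3) to -0.32 (without EGF+TGFB replicate 2). Genes with few counts, such as FGA, HP, COL5A1, BEST2 and DAPL1, are limited by depth.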

Other observations

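Some genes outside the lists, chosen after their values were seen, fall into known pathways. In prostaglandin metabolism, the inducible cyclooxygenase PTGS2 rose from 17.97, 16.7 and 14.4 CPM to 62.2, 57.6 and 51.6 CPM (1.80 ± 0.12, edgeR adjusted p = 3.1e-11). The downstream synthase PTGES fell from 128, 143 and 169 CPM to 49.5, 57.2 and 55.99 CPM (-1.43 ± 0.12, edgeR adjusted p = 4.9e-09), and the prostaglandin E2 receptor PTGER4 fell by 1.24 on the log2 scale. The prostaglandin genes thus moved in both directions, with no overlap between groups. Both chains of the interleukin-1 receptor rose. IL1R1 rose from 28.01, 23.6 and 24.3 CPM to 144, 129 and 141 CPM (2.45 ± 0.08, edgeR adjusted p = 3.4e-17), and IL1RAP from 49.4 ± 1.75 to 142 ± 5.22 CPM (SD, n = 3). The cytokine IL24 and the receptors IL7R and LTB4R rose by 3.62 ± 0.30, 2.66 ± 0.18 and 2.64 ± 0.12.

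Further glycolysis and pH genes also rose. Enolase 2 (ENO2) rose from 1.87, 1.97 and 1.75 CPM to 25.5, 21.8 and 18.5 CPM, and the glucose transporter SLC2A3, the regulator PFKFB4, aldolase C (ALDOC) and the carbonic anhydrase CA12 by 3.40 ± 0.27, 2.38 ± 0.13, 2.14 ± 0.12 and 1.73 ± 0.10. The sodium channel subunits SCNN1B and SCNN1G fell by 2.03 and 2.04 on the log2 scale. Among secreted factors, WNT5A rose from 24.05, 19.3 and 17.8 CPM to 114, 93.001 and 76.3 CPM, whereas PDGFB fell by 2.33 and the activin antagonist FST by 2.35 on the log2 scale.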
